A study of Mus musculus with 18 samples.

Results

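Lymphoma cells that had regrown for 14 days without drug, and had been sorted for small size, were compared with cells of the same lymphomas at the end of 5 days of adriamycin with 4-hydroxytamoxifen (4-OHT). The comparison set 3 small outgrowth arrays against 3 ADR+4-OHT 5 d arrays, 6 of the 17 with values, paired by the lymphoma from which the cells came, and all 17 entered the model and gave its estimate of the spread. It covered 11897 genes of the 18194 with a probe set, with 1 probe set kept per gene, the brightest on average across all 17 arrays. A gene was tested if 3 or more arrays reached a log2 signal of 4.86, the middle of all values. All values below are log2 signals, or differences between them, so that a difference of 1 is a doubling. In the deposited values every probe set had the same median in the 3 lymphomas. Levels, spread within a group and overlap of groups across lymphomas are therefore those left after offsets between lymphomas had been removed.

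Every group carried the same genetic background. The cells were primary B-cell lymphomas from Eµ-myc mice of a C57/Bl6 background that lacked Suv39h1, and all had been transduced with a retrovirus for Bcl2 and with Suv39h1-ERT2, a fusion that 4-OHT activates. The small outgrowth group (n = 3) came from cultures that had received adriamycin (ADR) and 4-OHT for 5 days and had then spent 14 days in medium free of both, after which the morphologically small cells were taken by flow cytometry. The ADR+4-OHT 5 d group (n = 3) was harvested at the end of treatment, with no sort named in the labels, so the drug-free time and the sort for small cells cannot be told apart. Untreated cells of the same lymphomas (n = 3) served as the starting point. Big outgrowth (n = 3), sorted from the same regrown cultures, ADR 5 d (n = 3) and ADR outgrowth (n = 2), both without 4-OHT, entered the same model and gave secondary comparisons. The lymphomas, numbered 4146, 4936 and 5043, are separate tumours, and each gave 1 array per group, except that 5043 had none with values in ADR outgrowth. The Eµ-myc transgene drives Myc in B-lineage cells, and Bcl2 blocks apoptosis in every culture, so the untreated cells are not normal B cells.

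Some arrays stood apart from their labels' groups. On the first principal component of all genes tested, the small outgrowth array of lymphoma 5043 scored 58.47, the big outgrowth array of 5043 scored 66.32 and the ADR 5 d array of 4936 scored 66.81, while no other array exceeded 5.937. The small outgrowth array of 5043 also had an Xist signal of 12.07, against 6.05 and 5.89 on the small outgrowth arrays of 4146 and 4936, and the ADR+4-OHT 5 d array of 4146 had the lowest Xist signal of its group, 2.78 against 6.34 and 5.55. The main gene lists below are therefore also given without the small outgrowth array of 5043 and without the ADR+4-OHT 5 d array of 4146. The excess of the 3′ over the 5′ control signal of Actb, a sign of RNA integrity, was 1.532, 1.81 and 1.414 on the small outgrowth arrays, against 1.507, 1.168 and 1.276 on the ADR+4-OHT 5 d arrays of 4146, 4936 and 5043, higher in small outgrowth in all 3 pairs. For Gapdh it was 0.417, 0.667 and 0.377 in small outgrowth, against 0.568, 0.415 and 0.534, higher in 1 pair of 3. The part of RNA integrity in the results was not tested.

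Adriamycin damages DNA by trapping topoisomerase II, and cells protected from apoptosis can answer with senescence, a durable arrest in which genes for DNA synthesis and mitosis are shut down while lysosomal and secreted proteins accumulate. Suv39h1 methylates histone H3 at lysine 9, a mark of heterochromatin that has been tied to the silencing of S-phase genes in senescent lymphoma cells. Genes of the G2 and M phases are controlled largely by the DREAM and MuvB complexes with B-Myb and FoxM1, and genes of DNA replication by E2F factors bound by RB.

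Of the 11897 genes, 600 differed between small outgrowth and ADR+4-OHT 5 d at a Benjamini-Hochberg adjusted p under 0.05 in limma with lymphoma as a block, 5.04% of those tested. Of these, 316 were higher (2.66%) and 284 lower (2.39%) in small outgrowth, 150 and 135 of them by at least 2-fold. All 600 differed in the same direction in each of the 3 lymphomas, and for 599 the values of the small outgrowth arrays lay wholly above or below those of the ADR+4-OHT 5 d arrays. Over all genes tested, 43.1% had the same sign in the 3 lymphomas and 33.1% had groups that did not overlap. The 600 were chosen on these same arrays. Their shared direction, lack of overlap and unadjusted p-values are therefore a description and not a second result. Against untreated cells, 0 genes passed in small outgrowth in limma (987 at an unadjusted p under 0.05, 8.3% of those tested, smallest adjusted p 0.21), while 350 passed for ADR+4-OHT 5 d against untreated (2.94%), 106 higher (0.891%) and 244 lower (2.05%). The median of the 316 higher genes was 0.98 for small outgrowth minus ADR+4-OHT 5 d, and that of the 284 lower genes was -0.97. The same 316 genes had a median of -0.77 for ADR+4-OHT 5 d minus untreated and of 0.19 for small outgrowth minus untreated, and the 284 had medians of 0.67 and -0.30. These comparisons share arrays, and the genes were chosen on the first, so the opposite signs are a description and not a second result. Of the 316 genes, 307 ended within 1 log2 unit of the untreated mean, as did 277 of the 284. At the end of treatment their medians, -0.77 and 0.67, were already less than 1 unit from untreated, so these counts do not measure recovery. The share of all genes within that distance was not taken. With the 6 compared arrays alone in the model, 0 of the 600 passed, and all 600 had an unadjusted p under 0.05. The count also depended on 1 array: without the small outgrowth array of 5043, 29 genes passed, and without the ADR+4-OHT 5 d array of 4146, 708 did. The 600 genes kept their direction without either array.

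Lysozymes, matrix proteases, a fatty-acid receptor, an acrosomal protein and a cytokine were among the genes with the largest falls in small outgrowth. A signal under 4.86 is taken here as no more than a bound: where a whole group was under it the difference is given as at least the value with signals raised to 4.86, and where some arrays were, that value stands beside the measured one. Lyz1, a lysozyme of myeloid and Paneth cells, had 4.25, 5.56 and 3.46 in the small outgrowth of lymphomas 4146, 4936 and 5043, against 11.45, 13.84 and 9.09 in ADR+4-OHT 5 d. The groups lay far apart in each lymphoma, and untreated cells, with 4.18, 4.83 and 3.67, were at the level of small outgrowth. In RefSeq (GRCm38.p6) Lyz1 lies on chromosome 10 at 117287795 to 117292868. The Lyz1 difference was -7.04 (SE 1.18, adjusted p = 0.0146, limma), and Lyz2, its close paralogue, differed by -5.87 (adjusted p = 0.0218). With signals under 4.86 raised to it, on 2 small outgrowth arrays for Lyz1 and 1 for Lyz2, the differences were -6.37 and -5.01. The lysozymes are similar in sequence, and their probe sets may share signal; both are in the list of macrophage and myeloid markers.

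Mmp13, a collagenase encoded on chromosome 9 at 7272514 to 7283333, had 4.33, 6.54 and 3.73 in small outgrowth, against 9.30, 15.02 and 10.44 in ADR+4-OHT 5 d and 3.19, 6.65 and 5.84 in untreated cells. Its difference from ADR+4-OHT 5 d was -6.72 (SE 1.18, adjusted p = 0.018, limma). Mmp12, the macrophage elastase, fell by 3.32 (adjusted p = 0.0407). Both proteases were under 4.86 on 2 small outgrowth arrays, and raised to that level they differed by -6.17 and -2.61. Cd36, a scavenger receptor that takes up fatty acids and oxidised lipids, had 4.26, 5.29 and 4.77 in small outgrowth, against 9.52, 9.38 and 9.78 in ADR+4-OHT 5 d. The spread within each Cd36 group was small beside the difference of -4.79 (SE 0.69, adjusted p = 0.0115, and -4.56 with the 2 small outgrowth values under 4.86 raised to it), and untreated cells, at 4.29, 5.95 and 5.21, overlapped with small outgrowth. Cd36 was the 1 member of the lipid uptake list of 10 genes that passed in limma (2.39% over all genes as lower), and it was also among the genes that passed without the small outgrowth array of 5043.

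Il6, a cytokine of the senescence-associated secretome, had 1.06, 3.24 and 2.84 in small outgrowth, against 4.46, 6.39 and 7.59 in ADR+4-OHT 5 d. All small outgrowth values of Il6 and 1 of ADR+4-OHT 5 d were under 4.86, and the difference was at least -1.42 (adjusted p = 0.0315 for the values as measured, limma). Eqtn, known from the sperm acrosome, was also under that level on every small outgrowth array and had 6.78, 7.88 and 9.11 in ADR+4-OHT 5 d, a difference of at least -3.07 (adjusted p = 0.0098). Ms4a4b, a membrane protein of the MS4A family, and F9, coagulation factor IX, were likewise under it in small outgrowth, with differences of at least -0.99 and -2.21 (adjusted p of 0.0098 and 0.0443, limma). Ahnak2, Gm9564 and Pik3r3, a regulatory subunit of phosphoinositide 3-kinase, had differences of -3.28, -2.81 and -2.51 (adjusted p of 0.0384, 0.0313 and 0.0224, limma). For Ahnak2, the small outgrowth array of 5043, at 3.77, was far under those of 4146 and 4936, at 7.14 and 6.77, and raised to 4.86 it gave a difference of -2.92.

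**Figure D1:**
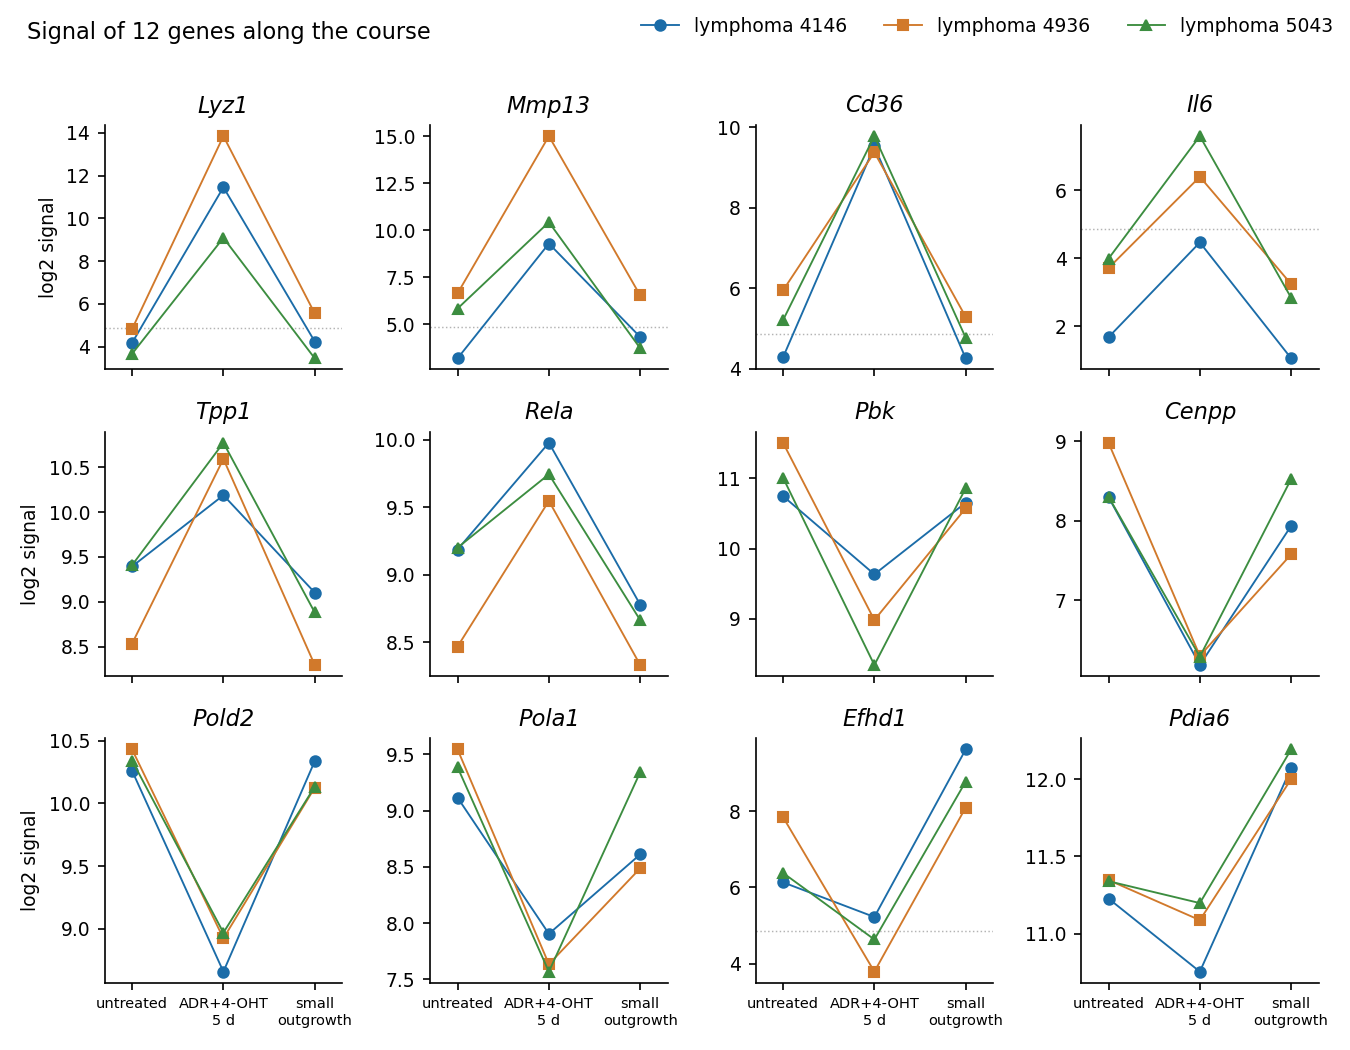
Log2 signal of 12 genes (vertical axes) in untreated cells, ADR+4-OHT 5 d and small outgrowth (horizontal axis, in the order of the course), with 1 line per lymphoma and a dotted line at 4.86 where values reach it. Lyz1, Mmp13, Cd36, Il6, Tpp1 and Rela peak at the end of treatment, Pbk, Cenpp, Pold2, Pola1 and Efhd1 are lowest there, and Pdia6 is highest in small outgrowth in all 3 lymphomas.

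Among the genes that rose, Efhd1, a mitochondrial protein with calcium-binding EF hands encoded on chromosome 1 at 87264353 to 87310841, changed most. It had 9.63, 8.10 and 8.78 in small outgrowth, against 5.22, 3.79 and 4.63 in ADR+4-OHT 5 d, a difference of 4.29 (SE 0.58, adjusted p = 0.00994, limma, and 3.86 with the 2 ADR+4-OHT 5 d values under 4.86 raised to it). Its small outgrowth values were also above those of untreated cells in each lymphoma (6.13, 7.85 and 6.38), by 3.49, 0.25 and 2.40, and that difference did not pass over all genes (2.05, SE 0.58, adjusted p = 0.508). Acss1, a mitochondrial acetyl-CoA synthetase, had 7.90, 7.25 and 9.67 in small outgrowth, against 5.20, 4.56 and 4.95 in ADR+4-OHT 5 d (difference 3.37, adjusted p = 0.0355, and 3.28 with 1 value raised to 4.86). Serpinb1a, an intracellular inhibitor of neutrophil serine proteases, had 11.49, 11.34 and 12.42, against 8.67, 8.45 and 9.22 (difference 2.97, adjusted p = 0.029). In these 3 genes no small outgrowth array overlapped with an ADR+4-OHT 5 d array.

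The other genes with the largest rise were of mixed function. Lcorl, a transcriptional corepressor-like protein, rose by 2.50, Zfp938, a zinc finger protein, by 2.44 (2.41 with 2 values raised to 4.86), and Ppp3cc, a catalytic subunit of the phosphatase calcineurin, by 2.07 (adjusted p of 0.0218, 0.0117 and 0.0248, limma). Txndc16, a thioredoxin-domain protein of the endoplasmic reticulum, rose by 2.005, H2-Ke6, a hydroxysteroid dehydrogenase encoded in the MHC region, by 1.95, and Usp3, which removes ubiquitin from histones, by 1.95 (adjusted p of 0.0371, 0.018 and 0.0248). Arhgef39, a guanine nucleotide exchange factor, rose by 1.88 (1.47 with 2 ADR+4-OHT 5 d values raised to 4.86) and Rdm1, a protein with a RAD52 motif, by 1.84 (adjusted p of 0.018 and 0.0478). Of the genes in this group, H1f4, a linker histone, was under 4.86 on all ADR+4-OHT 5 d arrays and rose by at least 0.996 (adjusted p = 0.0235). Its small outgrowth values of 5.43, 6.48 and 5.65 stayed under the untreated ones of 6.85, 7.005 and 6.54 in every lymphoma, a difference of -0.95 (SE 0.40, unadjusted p = 0.036 in limma, not past the adjusted threshold).

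Genes of mitosis and the kinetochore were the group with the most members that rose. Of 51 tested, 16 passed as higher in small outgrowth (31.4%, against 2.66% of all genes), 0 as lower, and all 51 differences were above 0 (6077 of 11897 over all genes). The list's median was 0.94, against 0.01 over all genes tested, but it differed between lymphomas, at 0.12 in 4146, 0.79 in 4936 and 1.83 in 5043. Without the ADR+4-OHT 5 d array of 4146 the median was 1.36 and 41 members passed, and without the small outgrowth array of 5043 it was 0.75 and 0 passed. These arrays set how many members passed, and the median was above 0 with and without each.

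Cenpp, a centromere protein, had 7.94, 7.58 and 8.53 in small outgrowth, against 6.19, 6.30 and 6.29 in ADR+4-OHT 5 d and 8.30, 8.98 and 8.30 in untreated cells. The groups were well apart in all 3 lymphomas, with a difference of 1.75 (SE 0.26, adjusted p = 0.0117, limma). Pbk, a mitotic kinase, had 10.65, 10.57 and 10.86 in small outgrowth, against 9.63, 8.98 and 8.34 in ADR+4-OHT 5 d (difference 1.71, adjusted p = 0.0186). Kif11, the kinesin that separates spindle poles, had 9.48, 9.62 and 9.77, against 9.26, 7.87 and 6.79. For Kif11 the difference was 0.22 in 4146 and 2.98 in 5043, and the ADR+4-OHT 5 d array of 4146 was the 1 of its group close to its untreated value of 9.64 (difference over the 3 lymphomas 1.65, SE 0.42, adjusted p = 0.0465). Ska1, which couples kinetochores to microtubules, rose by 1.64 (adjusted p = 0.0225), and Aurkb, the kinase of the chromosomal passenger complex, by 1.60 (adjusted p = 0.0243).

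The promoters of mitotic genes were examined for the cell cycle homology region core (TTTGAA), through which MuvB complexes bind, and for the CCAAT box (CCAAT), the site of NF-Y, both on either strand in the 250 bases before the RefSeq start (build GRCm38.p6). The core was found in 14 of 42 promoters of the mitosis list (33.3%), against 10.6% of promoters of the genes tested and 16.0% of all 32851 promoters. The CCAAT box was found in 28 of the 42 (66.7%), against 34.9% and 33.8%. Of 47 promoters of the DNA replication list, 6 held the core (12.8%) and 25 the CCAAT box (53.2%). Of the 16 mitotic genes that passed, 10 matched a promoter entry, and 2 of these 10 held the core and 5 the CCAAT box. A match of these letters is a description and no evidence of binding. The 100 bases before the start are shown for the 4 genes that passed and held either motif there, in lower case with the motifs in capitals, to show where the letters lie; the motifs can share 1 base, and in these stretches they share 0.
Kif11, chr19:37376282-37376381, + strand: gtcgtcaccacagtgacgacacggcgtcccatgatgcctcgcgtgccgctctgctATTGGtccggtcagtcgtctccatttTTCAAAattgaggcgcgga
Racgap1, chr15:99651657-99651756, - strand: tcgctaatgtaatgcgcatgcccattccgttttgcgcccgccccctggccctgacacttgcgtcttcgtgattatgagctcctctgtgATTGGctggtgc
Hmmr, chr11:40733438-40733537, - strand: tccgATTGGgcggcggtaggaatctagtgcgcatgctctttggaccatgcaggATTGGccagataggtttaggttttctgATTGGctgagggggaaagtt
Ccnb2, chr9:70421555-70421654, - strand: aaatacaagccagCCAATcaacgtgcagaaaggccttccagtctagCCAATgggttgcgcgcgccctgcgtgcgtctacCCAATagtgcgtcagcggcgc
The Kif11 stretch is the 1 of these 4 with the core, on the reverse strand close to the start, and Hmmr and Ccnb2 each have 3 CCAAT boxes. Racgap1, a GTPase-activating protein of cytokinesis, rose by 1.36, Hmmr, which binds spindle microtubules, by 1.18 and Ccnb2, a cyclin of CDK1, by 1.12 (adjusted p of 0.0323, 0.018 and 0.0319, limma).

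Genes of DNA replication had smaller differences, and fewer of them passed. Of 46 tested, 3 passed as higher in small outgrowth (2.66% over all genes) and 0 as lower, and the median was 0.32, with -0.13 in 4146, 0.14 in 4936 and 1.12 in 5043. Without the ADR+4-OHT 5 d array of 4146 the median was 0.61 and 9 passed, and without the small outgrowth array of 5043 it was 0.17 and 1 passed. The 3 were polymerase subunits. Pold2, of polymerase delta, had 10.34, 10.13 and 10.13 in small outgrowth, against 8.66, 8.92 and 8.97 in ADR+4-OHT 5 d and 10.26, 10.43 and 10.34 in untreated cells. Its small outgrowth and untreated values nearly coincided (difference from ADR+4-OHT 5 d 1.35, SE 0.17, adjusted p = 0.0098, limma). Pold1, the catalytic subunit of the same polymerase, rose by 1.03 and Pola1, the catalytic subunit of polymerase alpha, by 1.11 (adjusted p of 0.0356 and 0.0323).

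Set against untreated cells, most DNA replication genes had lower values in small outgrowth in every lymphoma. The replication list had a median of -0.60 for small outgrowth minus untreated, at -0.43 in 4146, -0.84 in 4936 and -0.53 in 5043, while the mitosis list had -0.27 (-0.07, -0.61 and -0.17). At the end of treatment the medians of ADR+4-OHT 5 d minus untreated had been -0.93 for replication and -1.21 for mitosis. By lymphoma (4146, 4936 and 5043) they had been -0.35, -0.84 and -1.57 for replication and -0.26, -1.37 and -2.01 for mitosis. In 4146 and 4936 the replication median was thus no nearer to untreated in small outgrowth than at the end of treatment. Of the 46 replication genes, 41 were below untreated in small outgrowth in all 3 lymphomas and 0 above, against 18.3% of all genes below. Of the 51 mitosis genes, 24 were below in all 3. For 13 of the 46 replication genes the small outgrowth mean was nearer to the untreated than to the ADR+4-OHT 5 d mean, against 45 of the 51 mitosis genes and 62.6% of all genes. None of these genes passed against untreated in limma; at an unadjusted p under 0.05, 18 of the 46 replication genes and 5 of the 51 mitosis genes were lower, against 8.3% of all genes in either direction. No test of the difference between the lists was made. Without the small outgrowth array of 5043 the median against untreated was -0.73 for replication and -0.41 for mitosis.

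The replication genes named next were chosen after their values were seen, as examples of the least recovered. Mcm3, of the replicative helicase, had 10.16, 9.62 and 10.27 in small outgrowth and 10.80, 10.80 and 11.39 in untreated cells, a difference of -0.98 (SE 0.31, unadjusted p = 0.0081, adjusted p = 0.51, limma). The ADR+4-OHT 5 d values of Mcm3, 10.52, 9.88 and 9.46, spanned those of small outgrowth. Pole, the catalytic subunit of polymerase epsilon, had 8.52, 8.49 and 8.81 in small outgrowth and 9.44, 9.43 and 9.68 in untreated cells, so that the groups did not overlap (difference -0.90, adjusted p = 0.508). Orc6, of the origin recognition complex, differed from untreated by -0.81, Pcna, the sliding clamp, by -0.65 and Rrm2, of ribonucleotide reductase, by -0.77 (adjusted p of 0.508, 0.565 and 0.55).

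**Figure D2:**
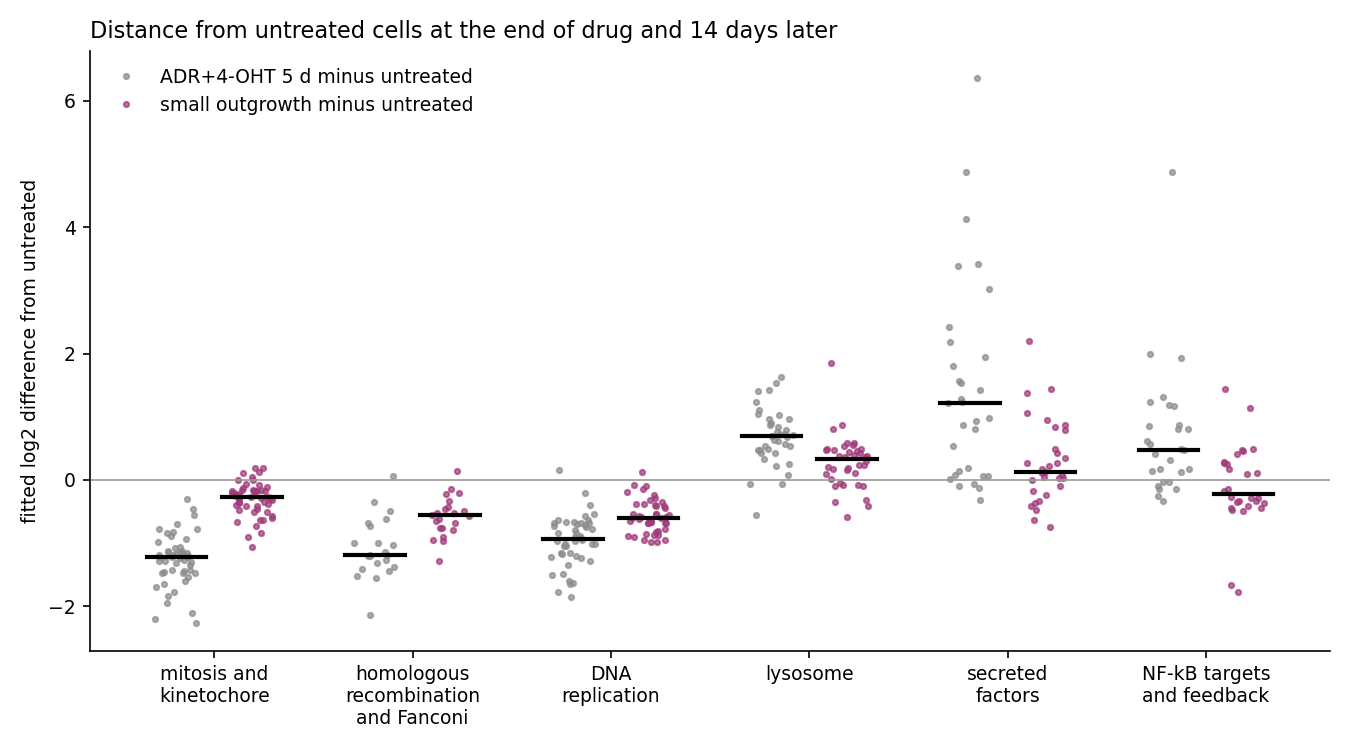
Fitted log2 difference from untreated cells (vertical axis) of every tested member of 6 gene lists, for ADR+4-OHT 5 d (grey) and for small outgrowth (purple), with black bars at the medians. The mitosis median is -0.27 in small outgrowth and -1.21 in ADR+4-OHT 5 d, the replication median is -0.60 in small outgrowth and -0.93 in ADR+4-OHT 5 d, and the lysosome and secreted factor medians, above 0 at the end of treatment, are closer to 0 in small outgrowth.

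Genes of homologous recombination and the Fanconi pathway, which repair broken and crosslinked DNA, lay between those lists. Of 22 tested, 2 passed as higher in small outgrowth (2.66% over all genes) and 0 as lower, with a median of 0.57 against ADR+4-OHT 5 d and of -0.56 against untreated. Without the small outgrowth array of 5043 the first was 0.40 and 0 passed, and without the ADR+4-OHT 5 d array of 4146 it was 0.79 and 6 passed. Ube2t, the ubiquitin-conjugating enzyme of the Fanconi pathway, had 9.59, 9.49 and 9.09 in small outgrowth, against 8.72, 7.92 and 7.34 in ADR+4-OHT 5 d (difference 1.40, SE 0.33, adjusted p = 0.0343, limma). Fancd2, which that enzyme modifies, rose by 0.96 (adjusted p = 0.0473). In small outgrowth 17 of the 22 were below untreated in all 3 lymphomas (18.3% over all genes). Brca2, a tumour suppressor of this pathway that was picked after its values were seen, had 7.61, 7.51 and 7.67 in small outgrowth and 8.57, 8.52 and 9.52 in untreated cells, a difference of -1.28 (unadjusted p = 0.0034, adjusted p = 0.508).

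Among 22 genes of E2F factors, RB proteins and G1 cyclins, 3 passed as higher in small outgrowth (2.66% over all genes) and 0 as lower, with a median of 0.17. Tfdp2, a DNA-binding partner of E2F, rose by 1.55, E2f7, an E2F repressor, by 1.12, and Skp2, which targets the inhibitor p27 for destruction, by 0.93 (adjusted p of 0.0473, 0.0411 and 0.0366, limma). Without the small outgrowth array of 5043, 0 of the 22 passed, and without the ADR+4-OHT 5 d array of 4146, 5 did. Of 5 histone genes tested, the variants H2ax and H2az1 among them, 2 passed as higher (2.66% over all genes), and 1 with either of those arrays left out. H2ax, the histone variant phosphorylated at DNA breaks, had 9.96, 9.999 and 9.80 in small outgrowth, against 8.80, 8.55 and 8.72 in ADR+4-OHT 5 d and 10.14, 10.40 and 9.94 in untreated cells (difference from ADR+4-OHT 5 d 1.23, SE 0.16, adjusted p = 0.0098). The H2ax groups were well apart, and the other histone gene that passed was H1f4.

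A few lysosomal genes fell. Of 38 tested, 4 passed as lower in small outgrowth (2.39% over all genes) and 0 as higher, with a median of -0.41, at -0.10 in 4146, -0.49 in 4936 and -0.59 in 5043. Tpp1, a lysosomal peptidase, had 9.10, 8.29 and 8.88 in small outgrowth, against 10.19, 10.59 and 10.77 in ADR+4-OHT 5 d and 9.39, 8.53 and 9.41 in untreated cells. Small outgrowth was the lowest of the 3 groups in every lymphoma (difference from ADR+4-OHT 5 d -1.76, SE 0.31, adjusted p = 0.018, limma). Mcoln1, a lysosomal calcium channel, fell by 1.31, Lamp1, a major membrane protein of lysosomes, by 1.06, and Atp6ap1, an accessory subunit of the proton pump, by 0.96 (adjusted p of 0.0223, 0.0293 and 0.0315). For small outgrowth minus untreated the list's median was 0.33 and 0 members passed. In all 3 lymphomas 17 of the 38 were above untreated, against 16.6% of all genes, and 5 were below, against 18.3%. Of the 4 that passed against ADR+4-OHT 5 d, Lamp1 was above untreated at 0.17, while Tpp1, Mcoln1 and Atp6ap1 were at -0.35, -0.41 and -0.09. The median was -0.40 and 0 lysosomal genes passed without the small outgrowth array of 5043, and it was -0.57 and 3 passed without the ADR+4-OHT 5 d array of 4146.

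Of 31 senescence-associated secreted factors, 3 passed as lower in small outgrowth (2.39% over all genes) and 0 as higher, the proteases Mmp13 and Mmp12 and the cytokine Il6 described above, with a median of -0.87. The median was -0.43 in 4146, -0.79 in 4936 and -0.64 in 5043, and -0.59 without the small outgrowth array of 5043, when 0 passed, and -0.89 without the ADR+4-OHT 5 d array of 4146, when 4 did. Against untreated cells the median was 0.13 in small outgrowth and had been 1.22 in ADR+4-OHT 5 d.

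Of 28 NF-kB targets and feedback genes, 3 passed as lower (2.39% over all genes) and 0 as higher, with a median of -0.84. Rela, the p65 subunit, had 8.78, 8.33 and 8.67 in small outgrowth, against 9.98, 9.55 and 9.74 in ADR+4-OHT 5 d and 9.19, 8.47 and 9.20 in untreated cells (difference from ADR+4-OHT 5 d -1.16, SE 0.19, adjusted p = 0.0132, limma). In every lymphoma Rela was lower in small outgrowth than in either other group. Nfkb2, which encodes p100 and p52, fell by 0.96 and Tnip1, an inhibitor that binds A20, by 0.95 (adjusted p of 0.0224 and 0.0132). Of the 28, 1 passed without the small outgrowth array of 5043, with a median of -0.74, and 4 without the ADR+4-OHT 5 d array of 4146, with a median of -0.69.

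Among 33 genes of the interferon response, Rsad2, an antiviral enzyme, was the 1 that passed (0 without the small outgrowth array of 5043, 1 without the ADR+4-OHT 5 d array of 4146). It had 6.46, 6.62 and 5.88 in small outgrowth, against 9.36, 7.27 and 8.35 in ADR+4-OHT 5 d and 6.46, 5.71 and 6.55 in untreated cells (difference from ADR+4-OHT 5 d -2.002, SE 0.36, adjusted p = 0.018, limma). The list's median was -0.40, and 29 of the 33 differences were below 0, while 6077 of all 11897 genes were above 0. As lower, 2.39% of all genes passed. Gbp2, a guanylate-binding protein, had 5.17, 7.47 and 3.85 in small outgrowth, against 10.68, 8.52 and 8.62 in ADR+4-OHT 5 d, and its difference of -3.77 missed the threshold (adjusted p = 0.0572, and -3.44 with 1 small outgrowth value raised to 4.86).

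Markers of macrophages and other myeloid cells moved with the lysosomal, secreted and interferon genes. The summed linear signal of 22 such markers was 6893, 8137 and 6021 in the small outgrowth of 4146, 4936 and 5043, against 12250, 38680 and 11489 in ADR+4-OHT 5 d and 4248, 6447 and 4344 in untreated cells. A few bright genes weigh most in this sum, and it does not measure cell number. Ctss averaged 12.03 in small outgrowth, 12.62 in ADR+4-OHT 5 d and 11.60 in untreated cells, and Lyz1 averaged 4.42, 11.46 and 4.23. Lyz1 and Lyz2 were the 2 of 14 tested markers that passed, both lower in small outgrowth (2.39% over all genes). The median was -1.005 (-1.13 without the small outgrowth array of 5043, when 0 passed, and -1.31 without the ADR+4-OHT 5 d array of 4146, when 2 did). Within this list Adgre1, Mrc1, Marco, Cd163, Ms4a7, Clec7a and the complement genes C1qa, C1qb and C1qc were under 4.86 on all 9 arrays of the 3 groups. Csf1r, the receptor for macrophage colony-stimulating factor, averaged 5.13 in small outgrowth, 7.04 in ADR+4-OHT 5 d and 5.07 in untreated cells. Itgam averaged 4.17 in small outgrowth and 5.77 in ADR+4-OHT 5 d, Cd14 3.81 and 5.30, Tyrobp 8.33 and 9.75, and Fcer1g 6.22 and 7.37. Of these, none passed in limma. On arrays of many cells, fewer cells of a type and less RNA per cell cannot be told apart. Small outgrowth was also sorted for small cells, while no sort is named for ADR+4-OHT 5 d or untreated cells. The part of that sort and of myeloid cells in these results was not tested.

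**Figure D3:**
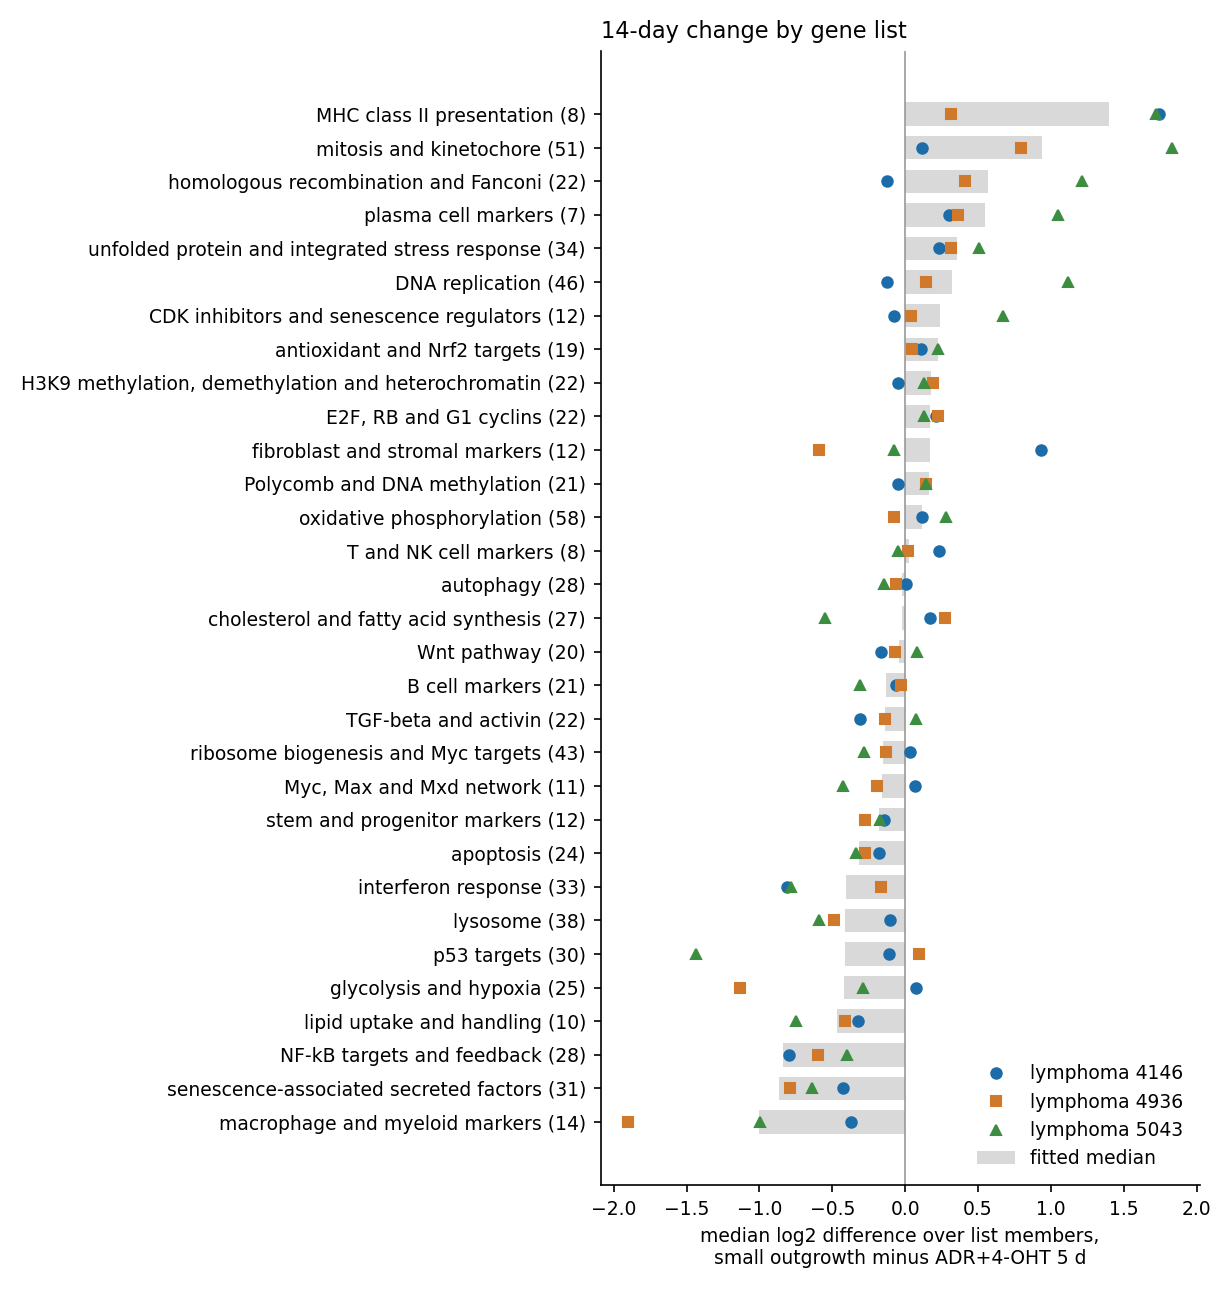
Median log2 difference of small outgrowth minus ADR+4-OHT 5 d (horizontal axis) over the tested members of each list with at least 7 of them (member count in brackets), as fitted over the 3 lymphomas (grey bars) and in each lymphoma (points). Mitosis and kinetochore genes run from 0.12 in 4146 to 1.83 in 5043, p53 targets reach -1.44 in 5043 alone, and secreted factors and NF-kB targets are below 0 in all 3 lymphomas.

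A list of genes covered the stress responses to unfolded proteins and through ATF4. Of its 34 tested genes, 5 passed as higher in small outgrowth (2.66% over all genes) and 0 as lower, with a median of 0.35. Pdia6, a protein disulphide isomerase, had 12.07, 12.002 and 12.19 in small outgrowth, against 10.75, 11.09 and 11.20 in ADR+4-OHT 5 d and 11.23, 11.35 and 11.34 in untreated cells. No small outgrowth value of Pdia6 overlapped with another group, and the difference from ADR+4-OHT 5 d was 1.08 (SE 0.15, adjusted p = 0.0106, limma). Against untreated cells Pdia6 differed by 0.79 (SE 0.15, unadjusted p = 0.00024, adjusted p = 0.486).

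Hspa5, the chaperone BiP, rose by 0.73, Hsp90b1, the HSP90 of that compartment, by 0.73, Manf, a secreted stress protein, by 0.69 and Pdia4 by 0.63 (adjusted p of 0.0368, 0.0224, 0.0319 and 0.0397, limma). The 5 genes that passed are folding enzymes, chaperones or resident proteins of the endoplasmic reticulum. Trib3, a pseudokinase induced by ATF4 that was picked after its values were seen, had 7.03, 6.71 and 8.09 in small outgrowth, against 7.43, 7.98 and 6.68 in ADR+4-OHT 5 d and 9.22, 9.29 and 8.22 in untreated cells (difference from ADR+4-OHT 5 d -0.09, adjusted p = 0.957). Without the small outgrowth array of 5043, 1 member passed and the median was 0.23, and without the ADR+4-OHT 5 d array of 4146, 3 passed as higher and 1 as lower. Against untreated cells the median was 0.31, and -0.0002 without the small outgrowth array of 5043.

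In metabolism the calls were few. Of 58 genes of oxidative phosphorylation, 4 passed as higher (2.66% over all genes), Ndufb5 of complex I by 0.77, Sdhd of complex II by 0.64, Atp5e of the ATP synthase by 0.63 and Uqcrc2 of complex III by 0.58 (adjusted p of 0.0306, 0.0439, 0.0433 and 0.0271, limma), and the median was 0.11. No gene passed without the small outgrowth array of 5043 in the lists of oxidative phosphorylation and of glycolysis, and without the ADR+4-OHT 5 d array of 4146, 1 passed as higher in oxidative phosphorylation and 3 as lower in glycolysis. Of 25 genes of glycolysis and hypoxia, Hk2, a hexokinase, passed as lower (2.39% over all genes). Hk2 had 9.38, 9.06 and 9.51 in small outgrowth, against 10.02, 11.28 and 10.49 in ADR+4-OHT 5 d and 10.45, 10.09 and 10.16 in untreated cells, the lowest in small outgrowth in every lymphoma (difference from ADR+4-OHT 5 d -1.28, adjusted p = 0.0297). Against untreated cells the list's median was -0.56 in small outgrowth and -0.10 in ADR+4-OHT 5 d, and 16 of its 25 members were below untreated in all 3 lymphomas (18.3% over all genes), with 0 above. The glycolysis median against untreated was -0.17 in 4146, -1.04 in 4936 and -0.31 in 5043, and Slc2a1, the glucose transporter, had 11.09, 9.55 and 11.08 in small outgrowth and 11.84, 11.79 and 11.56 in untreated cells.

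For the lists that follow, the shares over all genes were 2.66% passing as higher and 2.39% as lower. Fth1, the ferritin heavy chain, was the 1 of 19 antioxidant genes that passed, and fell by 1.15 (adjusted p = 0.043, limma). Of 28 autophagy genes, Atg16l1 and Becn1, which act in the formation of autophagosomes, passed as lower, at -0.68 and -0.67 (adjusted p of 0.0478 and 0.0305), with a list median of -0.02. Of 43 genes of ribosome biogenesis and Myc targets, Nob1, which matures the small ribosomal subunit, passed as higher by 0.58 (adjusted p = 0.0483), and 0 of 27 genes of cholesterol and fatty acid synthesis passed. Without the small outgrowth array of 5043, Fth1, Atg16l1, Becn1 and Nob1 did not pass, and without the ADR+4-OHT 5 d array of 4146, Fth1 alone of these did.

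Of 30 p53 targets, Ddb2, a DNA damage sensor, passed as higher by 1.55 and Apaf1, the scaffold of the apoptosome, as lower by 1.03 (adjusted p of 0.0436 and 0.0443, limma). The shares over all genes were 2.66% higher and 2.39% lower. The list's median of -0.41 rested on the small outgrowth array of lymphoma 5043, which stood apart. The median was -1.44 in 5043, against -0.11 in 4146 and 0.10 in 4936, and without that array it was -0.02 and 0 passed. Without the ADR+4-OHT 5 d array of 4146 it was -0.63 and 2 passed, both as higher. Cdkn1a, the CDK inhibitor p21, was likewise low in small outgrowth in 5043, with 11.92, 12.64 and 9.93 in small outgrowth, against 12.21, 12.87 and 13.20 in ADR+4-OHT 5 d and 11.56, 12.25 and 12.56 in untreated cells. Cdkn1a did not pass (difference -1.26, SE 0.77, adjusted p = 0.352).

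Cdkn2a, the locus of p16 and p19ARF, had 5.97, 4.26 and 7.34 in small outgrowth, against 6.46, 7.80 and 3.21 in ADR+4-OHT 5 d, with opposite signs in the lymphomas and an adjusted p of 0.995. None of 12 CDK inhibitors and senescence regulators passed. Apaf1 was also the 1 of 24 apoptosis genes that passed, where 2.39% of all genes passed as lower. Bcl2, the transduced gene, had 8.51, 9.25 and 6.94 in small outgrowth, against 8.16, 7.58 and 8.49 in ADR+4-OHT 5 d, and Myc had 12.13, 12.53 and 11.68, against 11.66, 11.59 and 12.09. Neither passed in limma (adjusted p of 0.933 and 0.532), and in both the 5043 pair moved against the other pairs. Of 11 genes of the Myc, Max and Mxd network, Mlxip, a partner of Mlx, fell by 1.19 (adjusted p = 0.0481), and it did not pass with the small outgrowth array of 5043 or the ADR+4-OHT 5 d array of 4146 left out.

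The Suv39h1 level could not be followed, because no probe set carried that symbol alone, so the activity that 4-OHT switches on was not checked here. Its paralogue Suv39h2 had 6.92, 6.59 and 7.06 in small outgrowth, against 6.83, 6.27 and 5.76 in ADR+4-OHT 5 d and 7.37, 7.52 and 7.57 in untreated cells. The Suv39h2 difference from ADR+4-OHT 5 d, 0.57, did not pass (adjusted p = 0.197, limma), while ADR+4-OHT 5 d differed from untreated by -1.20 (adjusted p = 0.0304). Among 22 genes of H3K9 methylation, its removal and heterochromatin, Kdm4a, a demethylase of that mark, fell by 0.88 (adjusted p = 0.0256) and 0 rose. None of 21 Polycomb and DNA methylation genes, 12 stem and progenitor markers or 22 TGF-beta and activin genes passed, and of 20 Wnt genes Dvl1, a scaffold of Wnt signalling, rose by 1.69 (adjusted p = 0.0243). Kdm4a and Dvl1 passed without the ADR+4-OHT 5 d array of 4146 and not without the small outgrowth array of 5043. Beside these single calls, 2.39% of all genes passed as lower and 2.66% as higher.

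The B-cell label was checked on its markers, and the B-cell antigen receptor gene Cd79b averaged 10.84 in small outgrowth, 11.03 in ADR+4-OHT 5 d and 10.77 in untreated cells. None of 21 B cell markers passed. Of 8 genes of MHC class II presentation, 0 passed, with a median of 1.40 against ADR+4-OHT 5 d, at 1.74 in 4146, 0.31 in 4936 and 1.72 in 5043. H2-Aa, a class II chain, had 7.11, 6.90 and 10.08 in small outgrowth, against 5.28, 5.73 and 6.59 in ADR+4-OHT 5 d and 6.58, 6.28 and 5.76 in untreated cells. The groups of H2-Aa did not overlap, but the spread within small outgrowth was wide (difference 2.17, SE 1.02, adjusted p = 0.23). The class II median against untreated was 2.68 in 5043 and 0.14 and 0.01 in 4146 and 4936. None of the markers of plasma cells (7), neutrophils and mast cells (4), dendritic cells (4), T and NK cells (8), fibroblasts (12), endothelium (4) or erythroid cells (2) passed, and the summed signal of plasma cell markers was 14521 to 14994 in small outgrowth, 11377 to 11642 in ADR+4-OHT 5 d and 10605 to 11628 in untreated cells.

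**Figure D4:**
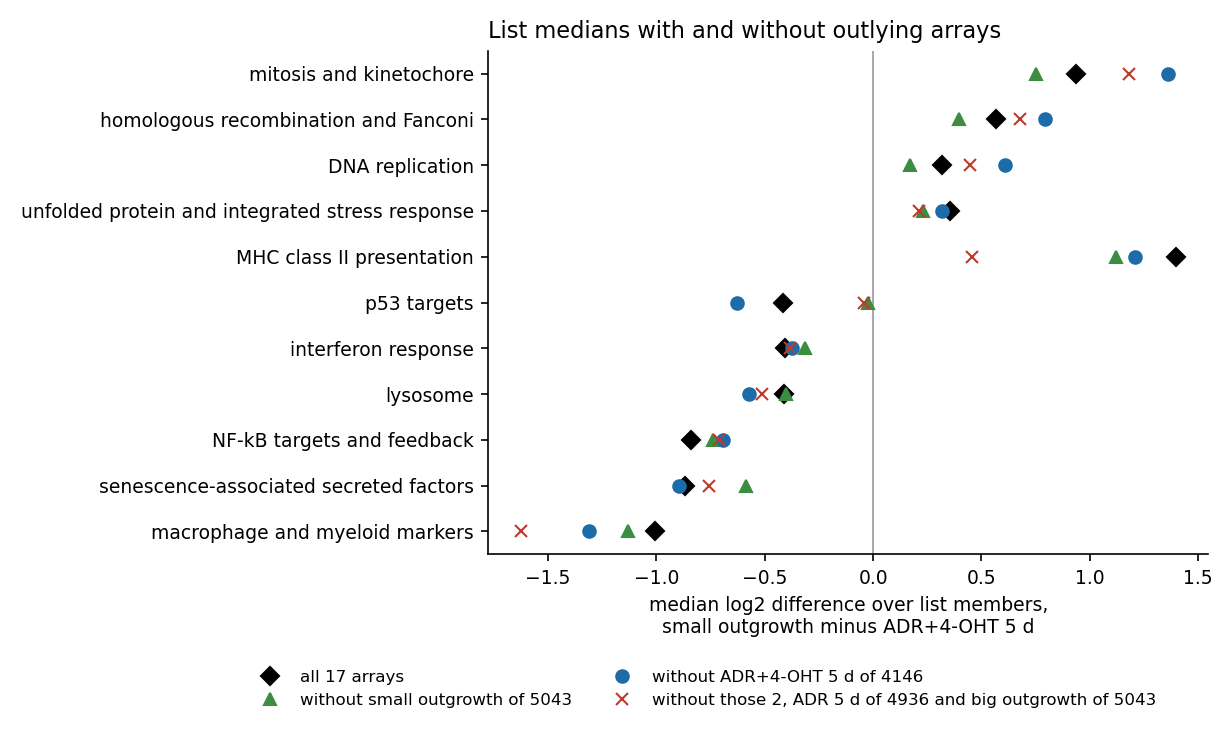
Median log2 difference of small outgrowth minus ADR+4-OHT 5 d (horizontal axis) over 11 gene lists with all 17 arrays (diamonds), without the small outgrowth array of 5043 (triangles), without the ADR+4-OHT 5 d array of 4146 (circles) and without 4 arrays, these 2 with the big outgrowth array of 5043 and the ADR 5 d array of 4936 (crosses). The mitosis median runs from 0.75 to 1.36, and the p53 median of -0.41 is -0.02 without the small outgrowth array of 5043.

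Directly against untreated cells, the genes with the smallest p in small outgrowth are given as values, since 0 passed. Fam102b had 9.41, 9.43 and 9.38 in small outgrowth and 7.90, 8.27 and 8.26 in untreated cells, a difference of 1.26 (SE 0.18, adjusted p = 0.21, limma). The Fam102b values of small outgrowth were tight and wholly above untreated, and its ADR+4-OHT 5 d values of 9.02, 9.02 and 8.86 lay between. Hdac11, a histone deacetylase, differed by 1.05, Hspb1, a small heat shock protein, by 1.65, Gstp1, a glutathione transferase, by 0.80 and Zfas1, a noncoding RNA, by 0.86. On the lower side, Diaph3, a formin, had 7.11, 6.99 and 7.71 in small outgrowth and 7.999, 8.25 and 8.41 in untreated cells (difference -0.95, SE 0.16, adjusted p = 0.404), and Ttll5, Vps16, Zfp653, Taf1 and Slf1 differed by -0.66, -0.69, -0.95, -0.73 and -0.88. Pdia6, described above, was also among the genes with the smallest p, at 0.79. Hdac11, Zfp653 and Pdia6 were also among the genes that passed against ADR+4-OHT 5 d, by 0.75, -0.95 and 1.08.

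No gene passed for small outgrowth against big outgrowth of the same cultures in limma (0 passed, 1243 at an unadjusted p under 0.05, smallest adjusted p 0.0654). Both outgrowths share the ADR+4-OHT 5 d arrays as their reference, and their list medians against it stand side by side. For mitosis they were 0.12, 0.79 and 1.83 in small outgrowth and 0.29, 1.26 and 1.74 in big outgrowth of 4146, 4936 and 5043. For secreted factors they were -0.43, -0.79 and -0.64 in small outgrowth and 0.41, -0.38 and 0.25 in big outgrowth, and the fitted median of small minus big outgrowth was -1.03, with 11 of 31 members at an unadjusted p under 0.05. Fibroblast and stromal markers, 12 genes, had a fitted median of -2.10 for small minus big outgrowth, with 11 of 12 at an unadjusted p under 0.05, and their part in the secreted factor values was not tested. Over all genes, 1243 of 11897 reached that unadjusted p. For NF-kB targets the medians were -0.80, -0.60 and -0.40 in small outgrowth and -0.05, -0.21 and 0.015 in big outgrowth. For myeloid markers they were -0.37, -1.90 and -0.99, against 0.17, -1.42 and -0.01. Of the largest falls, Lyz1, Mmp13 and Cd36 differed by -4.34, -4.82 and -2.85 for small minus big outgrowth. Each had 2 small outgrowth values under 4.86. Gm9564 and Pik3r3, also among those falls, differed by -0.48 and -0.005. The genes with the smallest p were Ipo7, an import receptor, Zfp667 and Echdc1, at 1.04, 1.20 and 1.02, and, on the lower side, Nrd1, at -0.79, with Klf4 and Emp1. Klf4, a pluripotency-linked transcription factor, was under 4.86 on all small outgrowth arrays and had 7.06, 7.996 and 5.54 in big outgrowth (adjusted p = 0.0654). Emp1, a membrane protein, was likewise under it in small outgrowth and had 7.70, 9.51 and 6.63 in big outgrowth, so no exact difference is given for either.

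Whether recovery differed with 4-OHT was asked by setting small outgrowth minus ADR+4-OHT 5 d against ADR outgrowth minus ADR 5 d, which had 2 outgrowth arrays. Small outgrowth was sorted for small cells, and the titles name no sort for ADR outgrowth. In this comparison 4-OHT and the sort therefore cannot be told apart. In limma 0 genes passed (1129 at an unadjusted p under 0.05, smallest adjusted p 0.208), and the ADR 5 d array of 4936 is one of those that stood apart (0 passed without it and the 5043 outgrowth arrays). Pdia6 had the smallest p, with a difference between the recoveries of 1.59 (SE 0.23, adjusted p = 0.208): without 4-OHT it had 11.27 and 11.33 in ADR outgrowth, against 12.004, 11.56 and 12.02 in ADR 5 d, the opposite order to that with 4-OHT. H2ax and Zfp277 had differences of 1.38 and 1.43, and Ncoa6, Zfp653 and Fam13b of -0.96, -1.66 and -1.33 (adjusted p of 0.255 for all 5). For mitosis genes the list medians were 0.12, 0.79 and 1.83 for small outgrowth minus ADR+4-OHT 5 d and 0.13 and 0.52 for ADR outgrowth minus ADR 5 d in 4146 and 4936, and for DNA replication -0.13, 0.14 and 1.12 against -0.02 and 0.75.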

How the data were processed

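Total RNA of 18 samples was hybridised to Affymetrix mouse arrays of 45101 probe sets, and 17 arrays had values. The authors deposited log2 signals made with RMA, and Partek is also named, per the submitters' processing notes; versions and genome build are not given in the sources used here. For every probe set, the 3 lymphomas had equal medians across their arrays (tolerance 1e-06), so lymphoma offsets had been removed before deposit, a step the labels do not state. Differences within a lymphoma are not affected. Signal levels, the spread within a group and the overlap of groups across lymphomas are those left after that step. How far it changed them was not tested. Of the probe sets, 34958 had 1 gene symbol in the platform annotation, 932 several (left out) and 9211 none.

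limma 3.58.1 in R 4.3.3 was fitted to 17 arrays with terms for 6 groups and a block for lymphoma (9 residual and 2.53 prior degrees of freedom), and p-values were adjusted by Benjamini-Hochberg over 11897 genes at 0.05. The pairing comes from the tumour each culture was made from; it could not be checked on the values, since removing lymphoma medians forces arrays apart (median correlation of group-centred values -0.117 within lymphomas and 0.0419 between). The median SE of the main difference was 0.223. The number of arrays limits the precision. The fit was also run on simulated data with independent noise, without outlying arrays and without removal of lymphoma medians. That run therefore does not bear on how the counts depend on single arrays.

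The members and the 36 gene lists (956 entries, 879 with a probe set) were chosen with earlier results of these data known. Genes were named by rule: Myc, Bcl2, Cdkn1a, Cdkn2a, Suv39h2 and Xist; the 12 largest called differences each way with the same sign in 3 lymphomas; up to 4 called members per list, or the 2 largest as values; and the most extreme genes of secondary comparisons. Aurkb, Pdia4, the promoter examples, the levels of single cell type markers and the genes marked as picked after their values were seen fall outside that rule. Alternatives changed the block, filter, probe set choice, normalization, variance model, array weights and arrays. Promoters are RefSeq's (GRCm38.p6).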

Additional observations from a re-analysis of the deposited data

Results flagged for a closer look

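The 19 antioxidant and Nrf2 target genes had medians of 0.11, 0.05 and 0.22 for small outgrowth minus ADR+4-OHT 5 d in lymphomas 4146, 4936 and 5043, against -0.02 and -0.40 for ADR outgrowth minus ADR 5 d in 4146 and 4936. The list was flagged because the medians were above 0 in every lymphoma after ADR with 4-OHT and below 0 in both after ADR alone. The outgrowth after ADR with 4-OHT was also sorted for small cells, so 4-OHT and the sort cannot be told apart. The value of -0.02 in 4146 is close to no change. That of -0.40 in 4936 is measured from the ADR 5 d array of 4936, which stood apart on the first principal component (66.81). How far the contrast depends on that array was not tested. The difference was not tested for the list, and 0 single genes passed the limma test of it.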

How the results depend on the processing

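The count of 600 genes for small outgrowth minus ADR+4-OHT 5 d was 985 without the block for lymphoma (the pairing), 1658 with array weights and 0 with the compared arrays alone (2088 at an unadjusted p under 0.05). It was 29 without the small outgrowth array of 5043, 126 without 3 outlying arrays, 300 without these and the ADR+4-OHT 5 d array of 4146, and 0 to 20 without 1 lymphoma. Under no filter, a stricter filter, the mean over probe sets, quantile normalization, median centring, a variance trend or omission of the ADR+4-OHT 5 d array of 4146 it was 468 to 708. Of the 600, all that were tested kept their direction under every alternative (588 under the stricter filter) except the mean over probe sets, with 584 of 590. The 600 were chosen on the same arrays, so their kept direction is no separate result. ADR+4-OHT 5 d minus untreated, with 350, gave 623 without the block, 212 with the mean over probe sets, 0 with the compared arrays alone, 1301 with weights, 547 without the ADR+4-OHT 5 d array of 4146, 779 without 4 arrays and 0 to 7 without 1 lymphoma. The counts of 0 became 1 without the block for small outgrowth minus untreated and for the 4-OHT difference in recovery. For small minus big outgrowth they became 30 without the block, 61 with weights, 3 without 3 arrays and 2 without 4. The cause of these changes was not tested. Arrays give no depth; values under 4.86 are bounds.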
